A study of Mus musculus with 4 samples.

Results

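The RNA-binding proteins and the kinase that shape alternative splicing in muscle were examined at the level of open chromatin. The 10 genes were Rbfox1, Rbfox2, Mbnl1, Mbnl2, Mbnl3, Celf1, Celf2, Rbm20, Rbm24 and Srpk3, and a peak belonged to a gene when the authors' annotation named that gene as having the nearest transcription start site (TSS). Of the 120839 peaks in the 4 lists, 282 were assigned to these genes, and they merged into 132 of 53883 regions. The genes were selected with earlier results from these same lists in view, so their peak numbers are a description. A peak was called in at least 1 list for 9 of the 10 genes and for 17158 genes in all.

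Alternative splicing lets a sarcomere or channel gene make different proteins in embryonic and adult muscle and in different fibre types. The Rbfox, Mbnl and Celf families bind short sequence motifs in pre-mRNA next to regulated exons. Mbnl proteins promote adult splicing patterns and are sequestered by expanded repeat RNA in myotonic dystrophy, in which Celf1 activity rises. Rbm20 controls splicing of titin and calcium-handling genes, Rbm24 is needed for the inclusion of many muscle exons, and Srpk3 is a muscle kinase of the family that phosphorylates serine- and arginine-rich splicing factors.

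ATAC-seq uses the Tn5 transposase to cut and tag accessible DNA, and it was applied to 4 muscles of wild-type C57BL/6 mice described as sedentary, which the study's methods give as young males of the C57BL/6J substrain. Extensor digitorum longus (EDL) and quadriceps (Quad) are mainly glycolytic, soleus (Sol) is rich in oxidative fibres, and diaphragm (Dia) is a continuously active muscle. No allele or agent distinguished the groups, and the labels give no age. Each muscle had 1 sample, made from powdered whole tissue and labelled as pooled. The labels do not give how many animals or libraries each sample combined. The values therefore hold no replicate error, and no test between muscles was possible.

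List lengths were 30136 peaks in EDL, 40337 in Quad and 28784 in Sol, and 21582 in Dia, with an inferred depth of 104, 78.1, 105 and 99.3 M tags (M, mega). Quad thus had the longest list and the lowest inferred depth, which bears on the counts of peaks. Among myofibre markers, the promoter of Myh4, a fast myosin, was open in EDL and Quad only, and Myh7, the slow myosin, had 2 peaks in Sol and none elsewhere. Of the other 4 myofibre markers, Ttn and Ckm had a promoter peak in every list, Acta1 in all but Sol, and the fast troponin Tnnt3 in Quad and Sol only, with no peak in EDL. Markers of other cells were present too, and their part in the results was not tested. The 3 endothelial genes (Pecam1, Cdh5, Tek) together had 16 peaks in EDL, 17 in Quad and 15 in Sol, with 8 in Dia. Peaks over the fibroblast list (Pdgfra, Col1a1, Dcn) numbered 5, 7, 5 and 1, and over the satellite cell list (Pax7, Myf5) 2, 6, 3 and 1, in the order EDL, Quad, Sol and Dia. In the same order the neuronal list (Rbfox3, Snap25, Syt1) had 3, 6, 3 and 1 peaks, and none of its promoters was open in any muscle. In whole tissue, fewer nuclei of a type and less open chromatin per nucleus cannot be told apart.

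Peaks assigned to the splicing regulators numbered 67 in EDL, 109 in Quad and 63 in Sol, and 43 in Dia. As a share of its list this was 0.222% in EDL (95% Wilson interval 0.175% to 0.282%), 0.27% in Quad (0.224% to 0.326%) and 0.219% in Sol (0.171% to 0.28%), with 0.199% in Dia (0.148% to 0.268%). The 4 intervals, which cover counting error only, overlapped. Quad had more peaks than Sol for 5 of the 9 genes with a peak, against 45.7% of all genes, and Sol had more than Quad for 2, against 12.4%. Among the 20000 highest-scored peaks of each list these numbers became 4 genes, against 20.6% of all genes, and 3 genes, against 20.9%. At that length the 10 genes had 46 peaks in EDL, 48 in Quad and 45 in Sol, and 42 in Dia, so most of the Quad excess lay in the lower part of the Quad list. The plot of peaks per gene shows this for each gene.

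**Figure D1:**
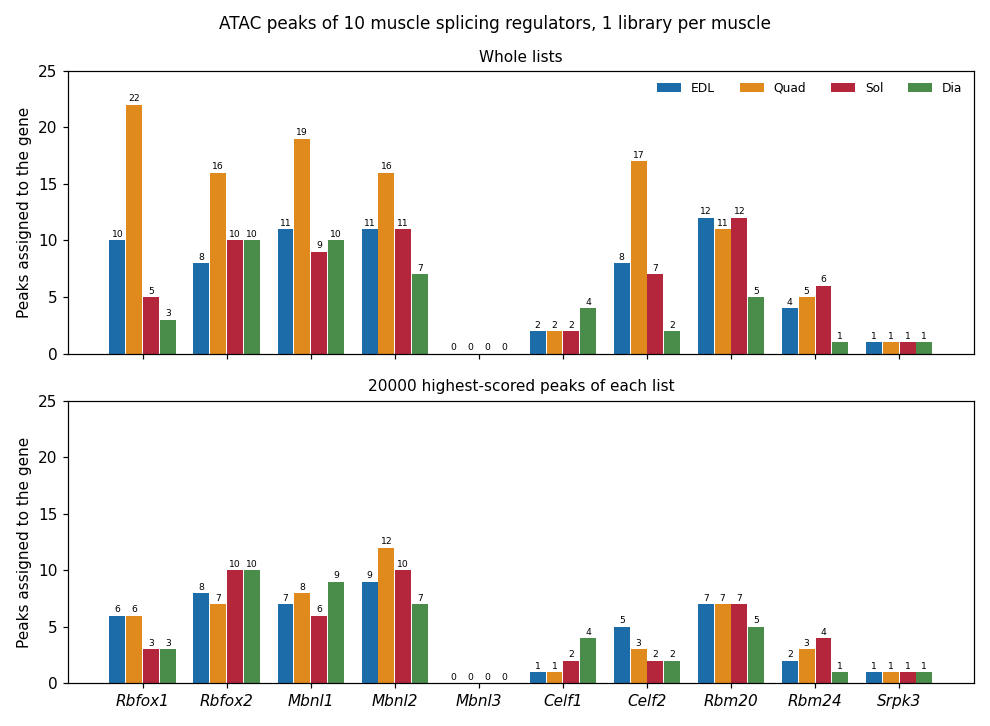
Peaks assigned to each splicing regulator (vertical axis, count) in EDL, Quad, Sol and Dia, in whole lists (upper panel) and in the 20000 highest-scored peaks of each list (lower panel). Rbfox1 goes from 22 peaks in Quad to 6, its count in EDL at that length, and Mbnl3 has 0 in every list.

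These peaks lay mostly in introns. Introns held 67.2% of them in EDL, 70.6% in Quad and 63.5% in Sol, with 62.8% in Dia, where the whole lists had 34.3%, 37.3%, 33.1% and 26.6%. Promoters held 13.4% in EDL (7.23% to 23.6%), 11% in Quad (6.41% to 18.3%) and 14.3% in Sol (7.7% to 25%), and 16.3% in Dia (8.12% to 30%). Whole-list promoter shares were 30.7%, 25.5%, 31.9% and 41.3%, above the upper bound of the regulators' interval in all 4 lists. More than 50 kb from the nearest TSS lay 37.3% of the regulators' peaks in EDL, 37.6% in Quad and 38.1% in Sol, with 23.3% in Dia, against 20%, 23%, 20.9% and 16.3% of the lists. The genes differ in length, from 4.52 kb for Srpk3 to 1526 kb for Rbfox1. They were selected with earlier results in view and several had many peaks, while a gene has few promoters, so these shares are a description. The intervals treat peaks of the same gene as independent.

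The Peak Score is HOMER's tag count scaled by library size, and it was read as a percentile within its own list, where 100 is the highest score. The median percentile of the regulators' peaks was 52.5 in EDL (95% interval 39.6 to 59.5), 45 in Quad (36.4 to 52.1) and 48 in Sol (34.6 to 63.2), and 40.5 in Dia (29.6 to 50.6). Outside promoters the medians were 49.2, 43.4, 43.2 and 39.9, against 38.3, 40, 38.2 and 34.1 for all peaks outside promoters. At promoters the order was the opposite, with medians of 56.1, 64.8, 67.3 and 50.6 against 76.3, 81.3, 75.7 and 74.1 for all promoter peaks. The regulators' promoter medians rest on only 9, 12, 9 and 7 peaks.

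Of the 132 regions, 31 had a peak in all 4 lists, or 23.5% (17.1% to 31.4%), against 26.9% of all regions. Quad alone had 41 of them, or 31.1% (23.8% to 39.4%), against 22.7%. Regions of EDL and Quad only numbered 15, or 11.4% (7.01% to 17.9%), against 8.05%, and those missing only from Dia numbered 13, or 9.85% (5.85% to 16.1%), against 8.09%. Sol alone had 10, or 7.58%, against 8.62%, and EDL alone had 3, or 2.27% (0.776% to 6.47%), against 6.71%. No region was shared by Sol and Dia only, a class with 1.20% of all regions, and 0 of 132 allows up to 2.83% by the Wilson interval. All-region shares lay inside the regulators' intervals for these classes, except for Quad alone, where 22.7% lay below the lower bound, and EDL alone, where 6.71% lay above the upper bound. Rbfox1 held 12 of the 41 Quad-only regions, and without it, an alternative chosen after the values were seen, the share was 26.6% (19.2% to 35.6%), an interval that holds 22.7%. The EDL figure rests on 3 regions.

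Read by list, 4.48% of the regulators' EDL peaks were found in no other list (1.53% to 12.4%), against 12.0% of all EDL peaks. This low share was lost under other settings, with 13% against 10.2% at 20000 peaks per list and 14.9% against 18.3% when overlap had to reach 50% of both peaks. The shares were 37.6% in Quad (29.1% to 47%) against 30.3%, 15.9% in Sol (8.86% to 26.8%) against 16.1%, and 11.6% in Dia (5.07% to 24.5%) against 11.5%. The 41 Quad-only peaks were low in their list, with a median percentile of 25.8, near the 23.4 of all 12228 Quad-only peaks, and 6 of them were among the 20000 highest-scored Quad peaks, against 15.7% of all Quad-only peaks. Of the regulators' EDL peaks, 86.6% were shared with Quad, 71.6% with Sol and 49.3% with Dia, against 79.6%, 67.5% and 54.6% of all EDL peaks. Of their Quad peaks, 53.2% were shared with EDL, 45% with Sol and 33% with Dia, against 59.5%, 53% and 42.5%. The last was the only pair of lists in which the share of all peaks, 42.5%, lay outside the regulators' interval (24.9% to 42.3%). It passed the bound by little, and these intervals treat peaks of the same gene as independent. Sol shared 76.2% with EDL, 77.8% with Quad and 52.4% with Dia, against 70.7%, 74.3% and 57.2%. Dia shared 76.7% with EDL, 83.7% with Quad and 76.7% with Sol, against 76.3%, 79.5% and 76.3%, all inside the regulators' intervals.

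Annotated starts were compared next. RefSeq gives 22 starts of coding transcripts for the 10 genes, and 9 of them had a peak centre within 1 kb in all 4 lists, against 41.2% of 26032 starts of all genes, while 8 had none in any list, against 45.8%. By the authors' annotation, 5 of the 9 genes with a peak had a promoter peak in all 4 lists (Rbfox2, Mbnl2, Celf1, Celf2 and Srpk3), against 40.8% of all genes with a peak. Rbfox1, Rbm20 and Rbm24 had one in some lists, and Mbnl1 and Mbnl3 had no promoter peak. The plot of starts shows all 22.

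**Figure D2:**
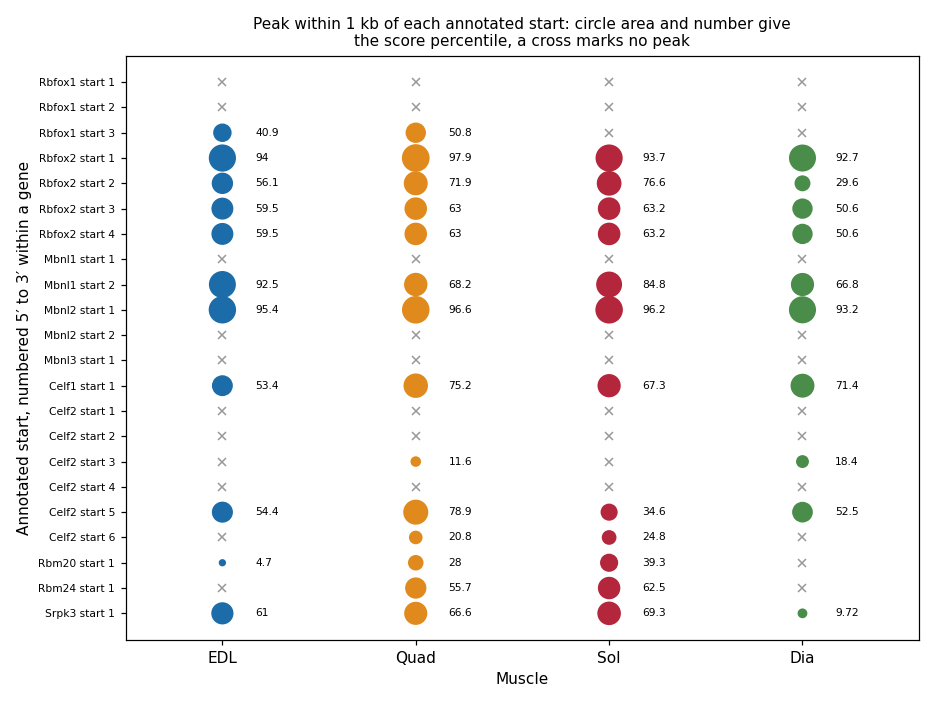
The nearest peak within 1 kb of each annotated start of the 10 genes (rows, numbered from the 5′ end of the gene) in each muscle (columns). Circle area and number give the Peak Score percentile within the list, and a cross marks that no peak was called. The strongest starts are the most 5′ start of Mbnl2, at 93.2 to 96.6, and that of Rbfox2, at 92.7 to 97.9. The only starts seen in just 2 muscles are in Rbfox1, Celf2 and Rbm24.

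Rbfox1 (ENSMUSG00000008658, mm10 chr16:5885355-7411526, forward strand) encodes a splicing factor that binds beside exons of muscle and brain genes. It had 10 peaks in EDL, 22 in Quad and 5 in Sol, with 3 in Dia. In the 20000 highest-scored peaks of each list it had 6 in EDL, 6 in Quad and 3 in Sol, and 3 in Dia. The order EDL above Sol and Dia thus held at equal list length, while the lead of Quad over EDL did not. Of all genes, 1.03% had at least as many peaks in EDL, 0.0699% in Quad and 6.64% in Sol, with 11.7% in Dia. Given its 1526 kb, its density was low: 0.59 peaks per 100 kb of gene in EDL, 1.18 in Quad and 0.262 in Sol, and 0.197 in Dia.

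The start of Rbfox1 that was open lay inside the gene. The 2 more 5′ starts, at positions 5884793 and 7039370, had no peak within 1 kb in any list. The internal start at position 7069835 had a promoter peak in EDL at percentile 40.9 (64 tags) and in Quad at 50.8 (52 tags), and none in Sol or Dia. Of the 26032 starts, 0.995% were open in EDL and Quad and in neither Sol nor Dia. In Sol and Dia the peak closest to that start lay about 11.8 and 11.9 kb upstream, in an intron, and this region was open in all 4 lists at percentiles 59.5 in EDL, 64.9 in Quad and 63.2 in Sol, with 34.1 in Dia.

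Across the gene, 2 regions were shared by all 4 lists, 12 were found in Quad only, and 5 in EDL and Quad only. The EDL-and-Quad class held the internal promoter and introns near 7.08, 24.7, 202 and 259 kb downstream of it. Of the 2 regions that all 4 lists shared, the one with the higher mean percentile lay 80.8 kb downstream of the internal start, in intron 1 of that transcript, at percentiles 71.8 in EDL, 61.1 in Quad and 73.2 in Sol, and 40.5 in Dia. EDL had its highest peak of the gene 29.8 kb downstream at percentile 76.3 (111 tags), where Dia had one at 38.1 (64 tags) and neither Quad nor Sol had a call. Quad had its highest 260 kb downstream at percentile 71.2 (73 tags), while EDL was at 10.1 there (44 tags). Sol had its highest in the shared region at 80.8 kb. The 12 Quad-only regions ranged from percentile 2.35 to 46.5.

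**Figure D3:**
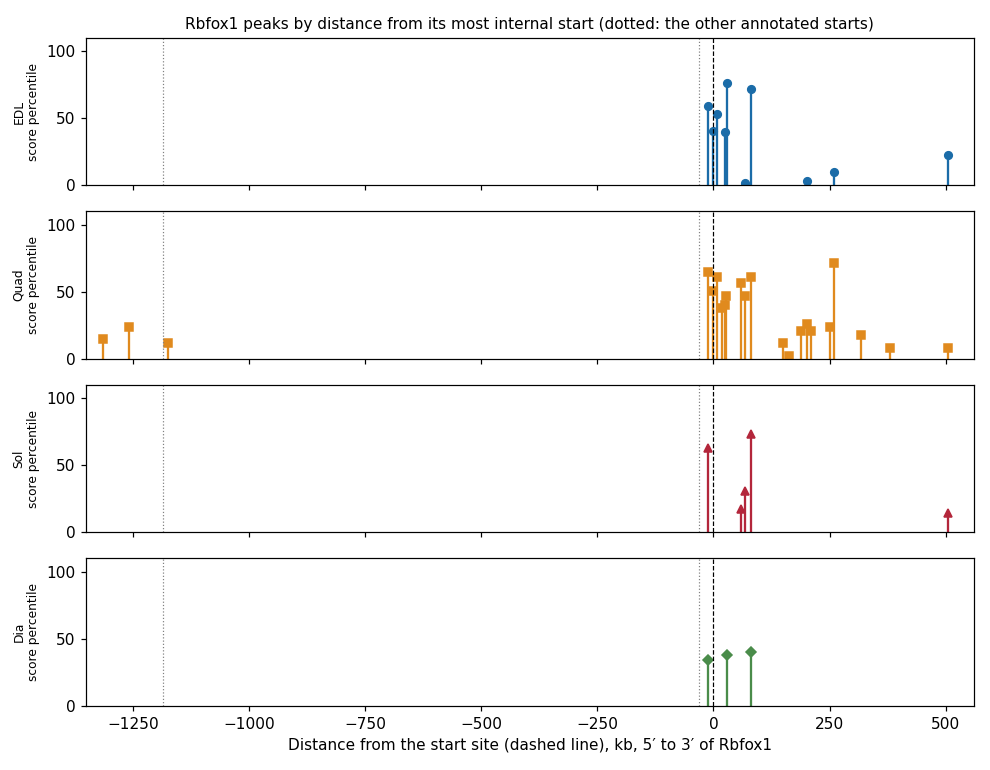
Rbfox1 peaks in EDL, Quad, Sol and Dia by distance in kb from the internal start (dashed line), with the 2 other annotated starts dotted. Height is the Peak Score percentile within the list. All 4 muscles have peaks at −11.9 and 80.8 kb, peaks at the dashed line exist in EDL and Quad only, and the 3 peaks around the most 5′ start are in Quad.

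The 250 bases upstream of the internal start and the 181 bases that all 4 peaks share at 80.8 kb are shown because they are the promoter that differed between muscles and the common element with the higher mean percentile. Both are on the forward strand of GRCm38.p6, the assembly behind mm10, at chr16:7069585-7069834 and chr16:7150576-7150756, the first from RefSeq. Capitals mark matches to motifs searched on both strands: the E-box CAGCTG, bound by MyoD-family factors, and the TEAD motif GGAATG, here as its reverse complement.
Rbfox1 internal promoter: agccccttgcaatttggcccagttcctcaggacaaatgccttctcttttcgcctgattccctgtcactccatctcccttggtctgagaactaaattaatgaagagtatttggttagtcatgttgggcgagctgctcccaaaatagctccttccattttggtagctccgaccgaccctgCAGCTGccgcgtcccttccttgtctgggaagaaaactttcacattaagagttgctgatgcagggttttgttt
Rbfox1 shared intronic region: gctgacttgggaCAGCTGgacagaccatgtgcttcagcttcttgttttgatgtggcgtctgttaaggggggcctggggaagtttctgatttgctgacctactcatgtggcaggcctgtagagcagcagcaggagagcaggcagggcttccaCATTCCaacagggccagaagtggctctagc
The promoter holds 1 E-box, starting 72 bases before the start, and the shared region holds 1 E-box and 1 TEAD match. An E-box of this form lies in 13% of the 32851 promoters in the RefSeq table over the same length. A match is a letter string and not evidence of binding.

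Rbfox2 (ENSMUSG00000033565, chr15:77078990-77307004, reverse strand), the relative of Rbfox1 expressed in many tissues, had 8 peaks in EDL, 16 in Quad and 10 in Sol, with 10 in Dia. At 20000 peaks per list it had 8, 7, 10 and 10, and Quad went from the highest count to the lowest. Its most 5′ start, at position 77307053, was open in all lists at percentile 94 in EDL (192 tags), 97.9 in Quad (200 tags) and 93.7 in Sol (189 tags), and 92.7 in Dia (180 tags). The intermediate start at position 77245608 was at 56.1 in EDL, 71.9 in Quad and 76.6 in Sol, with 29.6 in Dia. The 2 neighbouring starts at positions 77153812 and 77153845 share a peak at 59.5, 63, 63.2 and 50.6 in the same order. All annotated starts of Rbfox2 were therefore open in every muscle, in contrast to Rbfox1. Dia had the lowest percentile at each, but at the most 5′ start the score was 18.1 in both Sol and Dia.

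Away from the annotated starts, the highest-scored region of Rbfox2 in every list was intergenic, 29.5 kb upstream in EDL, at percentile 87.8 in EDL, 83.6 in Quad and 82.3 in Sol, and 79.1 in Dia. The 138 bases common to its 4 peaks (chr15:77336444-77336581, forward strand) are given because the 4 muscles stood close together there, with 2 NFAT motifs (TGGAAA, shown as the reverse complement) in capitals. NFAT factors respond to calcium and calcineurin.
Rbfox2 shared intergenic region: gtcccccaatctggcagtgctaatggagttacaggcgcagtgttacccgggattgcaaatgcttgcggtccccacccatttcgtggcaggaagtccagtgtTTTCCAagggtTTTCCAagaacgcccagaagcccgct
Found in 1 list only were 5 regions in Quad, at percentiles 11.6 to 46.5, 2 in Sol at 34.6 and 51.9, and 1 in Dia at 52.5. The Dia region lay 79 bp from a peak of EDL, less than the 232-bp width of a Dia peak.

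Mbnl1 (ENSMUSG00000027763, chr3:60472830-60629750, forward strand), the main muscleblind protein of adult muscle, had the most peaks of the 10 genes when the 4 lists were summed (49) but led alone in none of them: 11 in EDL, 19 in Quad and 9 in Sol, with 10 in Dia. At 20000 peaks per list it had 7, 8, 6 and 9, and Dia was then highest. The 3 genes whose 4 counts were nearest to these were Arid1b (13, 19, 9 and 8 peaks) and Vgll4 (11, 18, 7 and 9), each at a summed absolute difference of 4, and 4921525O09Rik (11, 18, 10 and 6) at 6. No Mbnl1 peak carried the promoter label, which ends 100 bp downstream of a start. In Quad and Dia a peak centred 103 and 104 bp downstream of the start at position 60501179 was labelled exonic, at percentiles 68.2 and 66.8. The next region, 609 bp downstream in EDL and in intron 1, was open in all 4 lists at 92.5 in EDL (178 tags), 81.7 in Quad (92 tags) and 84.8 in Sol (137 tags), and 79.8 in Dia (123 tags). The more 5′ start at position 60472830 had no peak within 1 kb.

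The 187 bases shared by the 4 peaks 609 bp downstream (chr3:60501706-60501892, forward strand) are printed as the open element closest to the Mbnl1 starts that all 4 muscles shared. None of the 5 motifs searched is in them.
Mbnl1 shared intronic region: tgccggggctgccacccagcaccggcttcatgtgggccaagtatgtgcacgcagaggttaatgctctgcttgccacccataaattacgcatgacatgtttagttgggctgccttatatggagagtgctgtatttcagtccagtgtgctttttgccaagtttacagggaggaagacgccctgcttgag
Mbnl1 had 7 regions open in all 4 lists, and introns 1 and 2 held the strong ones. At 26.8 kb the percentiles were 82.4 in EDL, 77.5 in Quad and 79.6 in Sol, with 60.7 in Dia. At 88.4 kb they were 84 in EDL (132 tags), 88.3 in Quad (112 tags) and 72.1 in Sol (105 tags), and 41.7 in Dia (67 tags), and Dia stood 30.4 points below the lowest other muscle. Dia was highest at 1 of the 7, 64.2 kb upstream, with 34.1 against 11.9 to 27.7 in the others. Another 7 regions were in Quad only, at percentiles 18 to 54.5, and 2 were in Dia only, at 2.92 and 25.

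Mbnl2 (ENSMUSG00000022139, chr14:120275669-120431697, forward strand), a muscleblind protein with a prominent role in brain, had 11 peaks in EDL, 16 in Quad and 11 in Sol, with 7 in Dia, and 9, 12, 10 and 7 at equal list length. Its peaks were the highest-scored of the family, with median percentiles of 71.3 in EDL, 69.3 in Quad and 64.6 in Sol, and 59.2 in Dia. The promoter at position 120275669 was at 95.4 in EDL (211 tags), 96.6 in Quad (176 tags) and 96.2 in Sol (220 tags), with 93.2 in Dia (184 tags), and an intron 1 region 1.54 kb downstream was at 91.3, 90.1, 79.6 and 79.4. The more 3′ start of Mbnl2, at position 120306452, had no peak within 1 kb in any list. Per 100 kb of gene Mbnl2 had 7.05 peaks in EDL, 10.3 in Quad and 6.41 in Sol, and 4.49 in Dia.

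Within Mbnl2 the regions differed in how Dia compared. In intron 2, 30.2 kb from the nearest start, the percentiles were 88.8 in EDL, 93 in Quad and 82.7 in Sol, with 78.4 in Dia. A further region of the same intron at 41.6 kb was at 76.3 in EDL (111 tags), 87.7 in Quad (110 tags) and 64.6 in Sol (93 tags), and 26.5 in Dia (56 tags). Dia was thus near the others at the first and 38.1 points below the lowest of them at the second. The 134 bases shared at 30.2 kb (chr14:120336516-120336649, forward strand), the shared element outside promoters with the highest mean percentile, hold 1 NFAT match in capitals.
Mbnl2 shared intronic region: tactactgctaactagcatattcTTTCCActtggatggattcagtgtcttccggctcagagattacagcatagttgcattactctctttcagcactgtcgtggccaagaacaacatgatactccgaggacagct
Regions in 1 list only numbered 6 in Quad, at percentiles 11.6 to 71.9, and 2 in Sol, intergenic, at 13 and 34.6. The Quad region at 71.9, 58.7 kb from the nearest start, was the highest-scored of the 41 Quad-only regions.

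Mbnl3 (ENSMUSG00000036109, chrX:51117269-51206532, reverse strand), a muscleblind protein linked to muscle precursors and regeneration, had no peak in any list. The nearest peak lay outside the gene at its 3′ side, 97.1 kb away in EDL, Sol and Dia and 58.3 kb in Quad, and was assigned to Rap2c, with percentiles of 11.9, 5.06, 18.4 and 20.8 in that order. No peak was called within the 89.3 kb of the gene, which says only that nothing passed these libraries' thresholds.

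Celf1 (ENSMUSG00000005506, chr2:90940382-91019497, forward strand), the CUG-binding protein that opposes Mbnl1 at many exons, had 2 peaks in EDL, 2 in Quad and 2 in Sol, with 4 in Dia, and 1, 1, 2 and 4 at equal list length. It was 1 of 2 genes, with Mbnl1, whose count was highest in Dia at that length without a tie. The promoter at position 90940397 was at 53.4 in EDL (76 tags), 75.2 in Quad (79 tags) and 67.3 in Sol (97 tags), and 71.4 in Dia (104 tags), so Dia stood above Sol and EDL. An intronic region 24.6 kb downstream was at 22.3, 18, 33.4 and 8.03. The extra peaks of Dia were 8.36 kb upstream, at percentile 28.1, and 525 bp downstream, at 44.1, the latter 241 bp from a Quad peak.

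Celf2 (ENSMUSG00000002107, chr2:6539694-7509563, reverse strand), a CELF protein of brain, heart and muscle, had 8 peaks in EDL, 17 in Quad and 7 in Sol, with 2 in Dia, and 5, 3, 2 and 2 at equal list length. As for Rbfox1, the Quad lead over EDL was lost there, and 10 of its 22 regions were in Quad only, at percentiles 7.89 to 52.1. Its 6 annotated starts behaved unlike each other. The start at position 6872035 was the only one open in all lists, with a peak about 0.56 kb upstream at percentile 54.4 in EDL, 78.9 in Quad and 34.6 in Sol, and 52.5 in Dia. The start at position 7081302 was open in Quad (11.6) and Dia (18.4), and the most 3′ one, at position 6721662, in Quad (20.8) and Sol (24.8). The most 5′ pair, at positions 7396000 and 7396198, and the start at position 6884996 had no peak within 1 kb. Dia had no peak of Celf2 outside promoters. The highest such region was 7.23 kb upstream of the most 3′ start in EDL, at 69.6 (98 tags), with 62.1 in Quad (62 tags) and no call in Sol or Dia. In intron 1, a Quad-only peak centred 135751 bp and a Sol-only peak centred 135553 bp from the nearest start lay 1 bp apart, so adjoining fixed-width peaks counted as separate regions there.

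Rbm20 (ENSMUSG00000043639, chr19:53677306-53867080, forward strand), the regulator of titin isoform size, had similar counts in EDL, Quad and Sol and fewer peaks in Dia: 12 peaks in EDL, 11 in Quad and 12 in Sol, with 5 in Dia, and 7, 7, 7 and 5 at equal list length. Its promoter, at position 53677306, was weak, at percentile 4.7 in EDL (41 tags), 28 in Quad (39 tags) and 39.3 in Sol (65 tags), and no peak was called in Dia. The strongest element lay in intron 1, 52.6 kb downstream, at 89.7 in EDL (158 tags), 88.7 in Quad (114 tags) and 89.2 in Sol (156 tags), and 51.6 in Dia (76 tags). The 3 limb muscles spanned 0.972 points there, and Dia was 37.2 points lower.

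All 5 Dia peaks of Rbm20 lay in regions open in every list. At 6.56 kb upstream the percentiles were 57.9, 66.6, 77.9 and 16.7, and at 77.3 kb downstream 56.1, 53.3, 49 and 9.72, in the order EDL, Quad, Sol and Dia. At 97.1 kb they were 40.9, 60.1, 14.5 and 18.4, and Sol was the lowest. At 20.3 kb they were 20.5, 18, 48 and 9.72. The 103 bases shared at 52.6 kb (chr19:53729918-53730020, forward strand) hold none of the 5 motifs and are shown as the highest-scored element of Rbm20 in each of the 4 muscles.
Rbm20 shared intronic region: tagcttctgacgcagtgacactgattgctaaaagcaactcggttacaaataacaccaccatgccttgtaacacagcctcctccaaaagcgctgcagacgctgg
Regions in 1 list only were 3 in Sol, all in intron 1, at percentiles 9.81, 26.2 and 45.9, and 1 in EDL at 15.4. No region of Rbm20 was in Quad only.

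**Figure D4:**
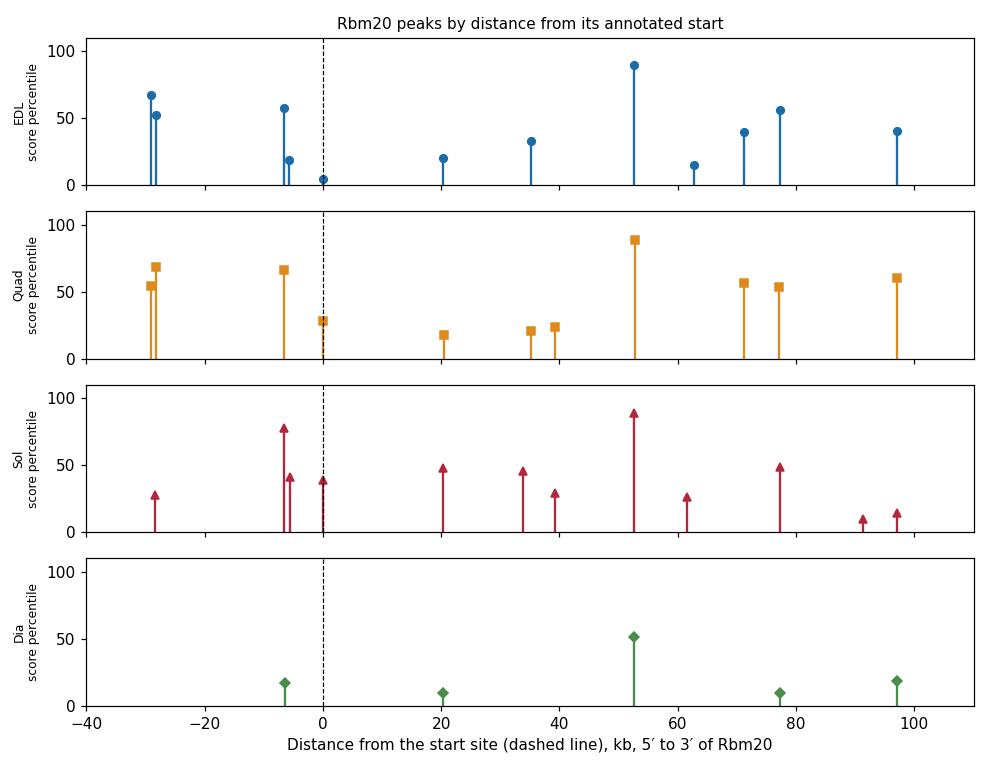
Rbm20 peaks in EDL, Quad, Sol and Dia by distance in kb from the annotated start (dashed line), with the Peak Score percentile within the list as height. The peak at 52.6 kb reaches 88.7 to 89.7 in EDL, Quad and Sol and 51.6 in Dia, and the start itself has a peak in EDL, Quad and Sol only.

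Rbm24 (ENSMUSG00000038132, chr13:46418434-46431095, forward strand), a splicing activator of heart and skeletal muscle, had 4 peaks in EDL, 5 in Quad and 6 in Sol, with 1 in Dia, and 2, 3, 4 and 1 at equal list length. Sol was the highest in both. The promoter at position 46418300 was open in Quad at percentile 55.7 (56 tags) and in Sol at 62.5 (90 tags), and no peak was called in EDL or Dia. Of the starts of all genes, 0.960% had this combination of muscles. An intron 3 region about 8.68 kb downstream was open in EDL at 84.7 (135 tags), in Quad at 61.1 (61 tags) and in Sol at 77 (115 tags), without a call in Dia. The region open in all 4 lists lay about 4.51 kb upstream, at 80 in EDL (120 tags), 78.4 in Quad (85 tags) and 71.6 in Sol (104 tags), and 56.8 in Dia (82 tags). EDL thus had 2 strong distal peaks and no promoter call.

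The 44 bases common to the 4 upstream peaks (chr13:46413774-46413817, forward strand) are given because they hold a match, in capitals, to the A- and T-rich motif of MEF2, a family of muscle transcription factors.
Rbm24 shared upstream region: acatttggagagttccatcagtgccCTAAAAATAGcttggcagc
Of the 132 regions, 6.82% held a MEF2 match in the 200 bases around the centre (3.63% to 12.5%), against 3.9% of all regions. With regions at promoters left out, the shares were 6.67% (3.42% to 12.6%) and 4.7%. Among the regions of 1 list only, Rbm24 had 1 in Sol, 68 kb upstream at percentile 19, and 1 in Quad, 5.85 kb upstream at 38.2.

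Srpk3 (ENSMUSG00000002007, chrX:73774405-73778925, forward strand), the kinase, had 1 peak in each list, at its promoter. The percentile was 61 in EDL (85 tags), 66.6 in Quad (67 tags) and 69.3 in Sol (100 tags), with 9.72 in Dia (46 tags). Exact Poisson intervals on the tags were 67.9 to 105 in EDL, 81.4 to 122 in Sol and 33.7 to 61.4 in Dia. These libraries had similar inferred depth, and the interval of Dia did not overlap the others. In Quad, with its lower inferred depth, it was 51.9 to 85.1 and overlapped that of Dia. Of the regions open in all 4 lists, this promoter had the widest gap below the other muscles, 51.3 points. The intervals are therefore a description of a region picked for its gap. On the authors' score, which is scaled by library size, the promoter had 8.18 in EDL, 8.58 in Quad and 9.56 in Sol, and 4.63 in Dia. The interval covers the counting of tags in these libraries and not differences between animals.

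The 250 bases upstream of the Srpk3 start (RefSeq, chrX:73774155-73774404, forward strand) are shown as the promoter with the densest set of motifs. Capitals mark 2 E-boxes, starting 86 and 78 bases before the start, and a MEF2 match starting 67 bases before it.
Srpk3 promoter: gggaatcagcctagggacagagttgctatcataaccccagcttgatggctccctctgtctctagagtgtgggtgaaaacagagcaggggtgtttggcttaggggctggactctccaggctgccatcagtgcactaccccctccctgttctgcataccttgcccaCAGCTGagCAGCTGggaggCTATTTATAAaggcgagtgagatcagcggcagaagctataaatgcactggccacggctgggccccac
Over the same length, a MEF2 match lies in 1.69% of the 32851 promoters, and Srpk3 was the only 1 of the 14 promoters found for 8 of the 10 genes to hold a match.

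The lower position of Dia was not limited to Srpk3. Among the 31 regions open in all 4 lists, Dia had the lowest percentile in 24, against 52.3% of all such regions, and stood at least 30 points below the lowest of the other 3 in 6, against 3.83%. The limit of 30 points was set after the values were seen. These 6 were the Srpk3 promoter, 3 regions of Rbm20 (at 6.56 kb upstream and 52.6 and 77.3 kb downstream), 1 of Mbnl1 (88.4 kb) and 1 of Mbnl2 (41.6 kb). On the score itself, the ratio of Dia to the mean of the other 3 muscles had a median of 0.852 over the 31 regions (95% interval 0.747 to 0.899), against 0.919 over all 14497 regions. A percentile depends on the length and threshold of its list. In some of the 24 regions, among them regions of Rbfox2, Celf1, Rbm20 and Mbnl2, the Dia score was above that of another muscle. The 31 regions come from 9 genes and share the same 4 samples, so they are not independent of each other. The Dia list differed from the others in its promoter share (41.3%) and in its endothelial peaks (8 against 15 to 17), and the part of either in this pattern was not tested. The share over all regions was not matched for promoters. Outside promoters the median percentile of all peaks was 34.1 in Dia, against 38.3 in EDL, 40 in Quad and 38.2 in Sol.

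**Figure D5:**
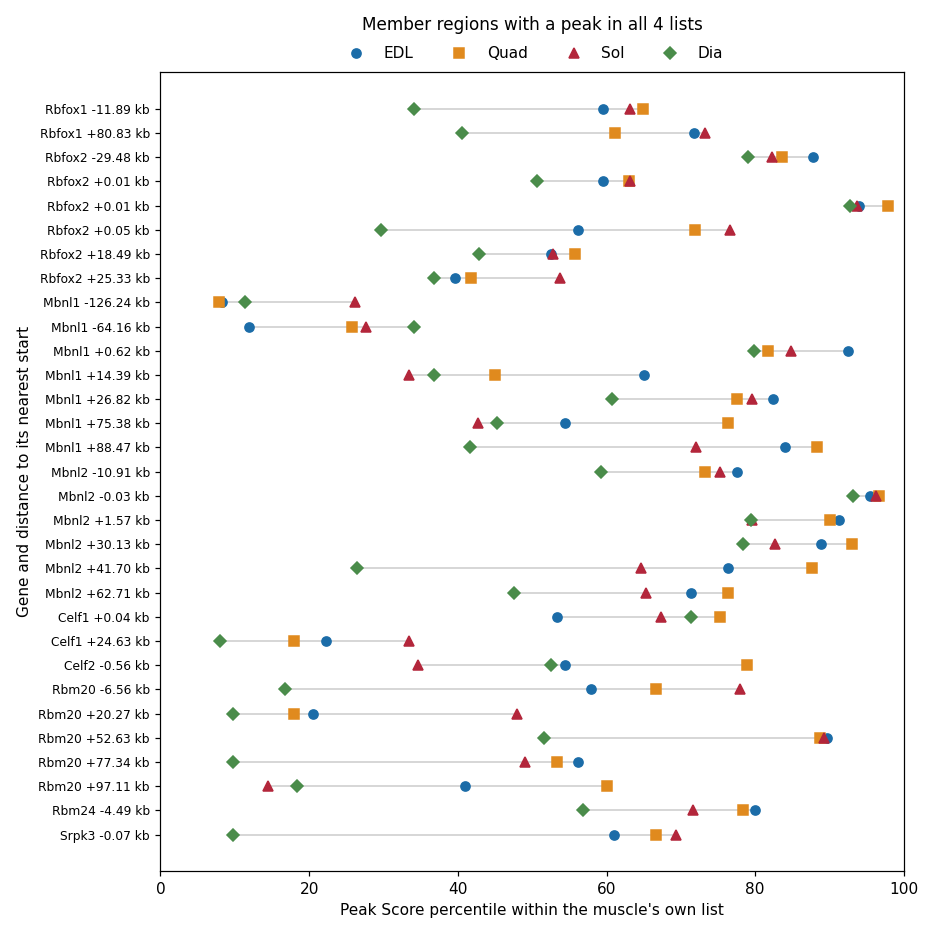
Peak Score percentile within each list (horizontal axis) for the 31 regions of the splicing regulators with a peak in all 4 lists. Rows give the gene and the median distance in kb to its nearest start, and grey lines span the lowest and highest muscle. Dia (diamonds) is lowest in 24 rows, with the widest gaps at Srpk3, Rbm20, Mbnl1 and Mbnl2, and the Mbnl2 promoter and the most 5′ promoter of Rbfox2 lie at 92.7 or above in every muscle.

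Beyond the MEF2 motif, E-boxes were in 23.5% of the 132 regions (17.1% to 31.4%) against 20.4% of all regions, and NFAT motifs in 24.2% (17.7% to 32.2%) against 18.1%. AP-1 (TGANTCA) was in 12.1% (7.6% to 18.8%) against 9.53%, and TEAD in 12.1% against 12.1%. The share of all regions lay inside the interval for each of the 5 motifs, so none of these differences exceeded counting error in 200-base windows. Without promoter regions, E-boxes were in 23.3% of the regulators' regions against 22.7%, and NFAT motifs in 24.2% against 20.6%. AP-1 was then in 12.5% against 11.3%, and TEAD in 12.5% against 13.5%. In 100-base windows NFAT was in 14.4% of the regulators' regions (9.41% to 21.4%) against 9.01% of all regions, just outside the interval. The other motifs stayed inside their intervals in these windows, and the comparison there was not matched for promoters. Median GC content of the windows was 49.8% in the regulators' regions and 53% in all.

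Other splicing regulators served as a comparison. Both gene sets were chosen with earlier results of these data known. Gene length was not matched, so differences in peak number are a description. Of 35 such genes, 32 had a peak and 17 had a promoter peak in all 4 lists (48.6%), and their median number of peaks per gene was 1 in EDL, 2 in Quad and 1 in Sol, with 1 in Dia, where the 10 genes above had 8, 13.5, 6.5 and 3.5. The most peaks over the 4 lists were at Rbpms (23), an RNA-binding protein of smooth and cardiac muscle, Nova1 (21), a neuronal splicing factor, and Celf4 (17). Celf3, Esrp1 and Srsf2 had none assigned, and whether a peak near them was assigned to a neighbouring gene was not tested. Among 13 genes whose transcripts are known splicing targets of these proteins, all had a peak and 6 had a promoter peak in all 4 lists. The most were at Camk2d (9, 12, 7 and 4 peaks in EDL, Quad, Sol and Dia), a calcium-dependent kinase, Ttn (7, 7, 7 and 6), which encodes titin, and Insr (6, 6, 7 and 4), the insulin receptor. Ttn, the best-known target of Rbm20, thus had nearly equal counts in the 4 whole lists, while Rbm20 itself had 12, 11, 12 and 5. At 20000 peaks per list Ttn had 7, 6, 6 and 6 and Rbm20 had 7, 7, 7 and 5, so little of this contrast remained.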

How the data were processed

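ATAC-seq was analysed from 4 lists of peaks, 1 for each muscle. In the study, frozen muscle was pulverised, nuclei were transposed, and paired reads were aligned to mm10 with Bowtie2. With HOMER, no more than 1 tag was retained for each start position. HOMER then called fixed-width peaks in each library and assigned each peak to the nearest TSS. The Tn5 offset of read ends and the treatment of mitochondrial and repeat reads were not given in the sources used here. Peak width and threshold were set within each library, at 188 bp (Quad) to 232 bp (Dia), so a missing peak says only that none was called there.

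The deposited Peak Score is a score that the authors obtained with HOMER, a tag count scaled by library size. All scores under 10 were whole multiples of a step to within 0.005, and the step gave tags and, for an assumed scale of 10 M tags, the depth. The lowest peak held between 25 tags (Quad) and 36 (Dia). Poisson and Wilson intervals (95%) cover counting error only, and tags are not independent molecules. The deposited distance to TSS and annotation were used as given. For all 282 peaks the implied TSS and the RefSeq start of that transcript differed by at most 100 bp.

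Peaks of different lists formed a region when they shared at least 1 bp. Percentiles were ranks within a list, with tied scores at their mean rank, and intervals of medians were order statistics. Gene positions came from GENCODE vM21 and sequences from GRCm38.p6. Motifs were MEF2, the E-box CAGCTG, AP-1 TGANTCA, NFAT TGGAAA and TEAD GGAATG, on both strands. The E-box reads the same on both strands. RefSeq promoters were found for 8 of the 10 genes. Scripts (Python 3.11.15, pandas 2.3.3, pysam 0.24.0) were tested on simulated peaks. All 10 genes were named. Of the other splicing regulators, the rule named the 3 with most peaks and those with none, and of the splicing targets the 3 with most. It also named the 3 genes nearest in counts to the gene with most peaks. For each of the 10 genes it took promoter peaks, the highest-scored peak outside promoters and the regions of 1 list only. Genes, lists and markers were chosen with earlier results of these data known. A further marker list is not reported here.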

Additional observations from a re-analysis of the deposited data

How the results depend on the processing

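Of 112 values for the 10 genes together recomputed under 11 alternatives, 93 stayed within the interval of the value reported or, for counts, within 1.5 times of it, and 19 did not. Of 160 peak counts of single genes, recomputed under 4 of the alternatives, 92 stayed within 1.5 times and 68 did not, 29 of them in the upper 50% of each list, 16 at 20000 peaks, 15 within 50 kb and 8 by gene body. Leaving out Rbfox1, joining peaks within 500 bp, setting each peak to 200 bp, taking promoters within 1 kb on either side, and searching motifs without promoter regions moved none by this rule. Without Rbfox1, however, the Quad-only share was 26.6%, and its own interval (19.2% to 35.6%) held the 22.7% of all regions. With lists of 20000 peaks, Quad held 48 peaks of the 10 genes in place of 109, its promoter share was 18.8%, and the share found in no other list was 18.8% in Quad and 13% in EDL. In the upper 50% of each list the genes had 35 peaks in EDL, 48 in Quad and 29 in Sol, with 15 in Dia, and the Quad promoter share was 18.8%. Within 50 kb of the TSS they had 42 in EDL, 68 in Quad and 39 in Sol. Requiring 50% reciprocal overlap gave 14.9% of EDL peaks in no other list and 16.9% of regions in all 4. Counting peaks inside the gene body instead of by nearest TSS lowered the Sol promoter share to 7.69%. Windows of 100 bp held E-boxes in 14.4% of regions, NFAT in 14.4% (9.01% of all regions), AP-1 in 6.06% and TEAD in 6.06%, as fewer bases were searched. No paired analysis was possible because each muscle has 1 sample. Differences in depth, peak width and threshold between lists limit every comparison of peak numbers and of percentiles.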
